A study of Mus musculus with 6 samples.

Results

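The glucocorticoid-induced genes described here are 8 genes of the mouse that respond to adrenal corticosteroids in many tissues: Tsc22d3, Fkbp5, Klf9, Sgk1, Nr3c1, Arrdc2, Errfi1 and Zbtb16. They were taken by name, and all 8 were found among the 47561 genes listed for each library. The libraries were made from total RNA of neutrophils that had been sorted by flow cytometry from mouse blood. There were 3 libraries from mice treated with AVP, profiled after 30 days of administration, and 3 from control mice. The labels used here do not expand the abbreviation AVP and give no strain, sex, age, dose or route. They do not say whether each library stands for its own animal, and p-values therefore measure a spread between libraries that may be technical.

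Glucocorticoids act through the receptor encoded by Nr3c1, which heat shock chaperones hold in the cytoplasm until it binds hormone. The bound receptor enters the nucleus, attaches to DNA as a pair of subunits at inverted repeats called glucocorticoid response elements, and raises the transcription of genes such as Tsc22d3, Fkbp5 and Sgk1. In blood, glucocorticoids are known to increase neutrophil number and survival and to damp the production of inflammatory mediators. Nr3c1 belongs to the group as the receptor and is itself often lowered by its hormone.

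Tsc22d3, the gene of the glucocorticoid-induced leucine zipper (GILZ), and Sgk1, a serum- and glucocorticoid-regulated kinase, were the members with a higher level in every AVP library than in every control library. The ratio of the mean FPKM, AVP over control, was 1.93 for Tsc22d3 and 1.98 for Sgk1. Fkbp5, a co-chaperone widely used as a readout of receptor activity, overlapped between the groups, as did Klf9, Nr3c1, Zbtb16, Arrdc2 and Errfi1. Adjusted over every gene in the test, the p of no member was under 0.05.

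Promoter sequences are shown for Sgk1 and Tsc22d3, the members that separated the groups, because the receptor's element is a short known sequence. RefSeq promoter windows of the GRCm38.p6 assembly run from 250 bases before to 50 bases after a transcript start. The 14 windows of 6 members were searched on both strands for the inverted repeat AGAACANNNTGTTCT, for the looser form GNACANNNTGTNC, and for the single arm TGTTCT, which also lies within the inverted repeat. The full repeat was found in 1 member window, at the fifth of the 6 starts of Sgk1 along the chromosome, and in 3 of all 32851 windows, a share of 0.00913%. The looser form was in the same Sgk1 window and in 0.475% of all windows. The arm was in 4 of the 14 member windows (3 of Sgk1 and 1 of Tsc22d3) and in 19.0% of all windows. Sgk1 had 6 of the 14 windows and Tsc22d3 had 3, more than any other member. Nr3c1 was left out of this search of member windows, and Zbtb16 had no window. Sequence outside the windows was not searched. A match of letters is a description and not a bound site. Both windows run in the direction of transcription, and capitals mark the arms.
Sgk1, chr10:21993640-21993939, plus strand: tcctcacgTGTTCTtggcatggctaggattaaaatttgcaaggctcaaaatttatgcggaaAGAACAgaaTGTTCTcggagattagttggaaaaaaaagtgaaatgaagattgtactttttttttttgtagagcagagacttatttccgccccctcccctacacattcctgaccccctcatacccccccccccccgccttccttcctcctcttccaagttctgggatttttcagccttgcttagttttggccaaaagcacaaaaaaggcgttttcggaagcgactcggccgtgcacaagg
Tsc22d3, chrX:140600473-140600772, minus strand: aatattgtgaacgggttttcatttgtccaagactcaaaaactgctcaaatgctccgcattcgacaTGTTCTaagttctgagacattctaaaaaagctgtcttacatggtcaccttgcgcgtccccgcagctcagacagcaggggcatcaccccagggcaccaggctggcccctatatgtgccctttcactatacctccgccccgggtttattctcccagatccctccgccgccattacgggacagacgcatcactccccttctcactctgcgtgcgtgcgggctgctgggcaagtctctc
In the Sgk1 window the repeat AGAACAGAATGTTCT lay on chromosome 10 from 21993701 to 21993715, beginning 189 bases before the transcript start at 21993890 and 965 bases before the next annotated start of Sgk1 at 21994666. The Tsc22d3 window is that of the most upstream of its 3 annotated starts and held a single arm. Values per gene do not tell which start was used.

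Values are given in FPKM, fragments per kilobase at a common depth, so that levels of different genes can be compared. Tsc22d3 lies on chromosome X from 140539528 to 140600522. It was at 233, 337 and 248 FPKM in AVP replicates 1 to 3, against 145, 136 and 143 FPKM in control replicates 1 to 3. The control libraries lay close together, and every AVP library lay above them. The means were 273 ± 56.5 FPKM after AVP and 141 ± 4.83 FPKM in controls (SD, n = 3 each). With libraries scaled to one another and values taken as log2(FPKM + 1), limma fitted a log2 fold change of 1.004 (SE 0.22, 95% interval 0.503 to 1.504). The adjusted p by limma was 0.221 over 8523 genes. Its p ranked 65 among those genes, and 10.6% of them had a higher fold change. A two-sided exact permutation test on the level of Tsc22d3 gave p = 0.1, and no smaller value can come from 3 libraries against 3.

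Sgk1, on chromosome 10 from 21882184 to 21999903, encodes a kinase that regulates ion channels and transporters. It was at 97.2, 73.5 and 90.5 FPKM in AVP replicates 1 to 3, against 39.5, 29.9 and 62.3 FPKM in control replicates 1 to 3. Control replicate 3 was the highest control and lay below the lowest AVP library. The means were 87.1 ± 12.2 FPKM after AVP and 43.9 ± 16.7 FPKM in controls (SD, n = 3 each). The fitted log2 fold change of Sgk1 was 1.11 (SE 0.36, 95% interval 0.29 to 1.93). Its adjusted p by limma was 0.392. The exact permutation test gave p = 0.1 for Sgk1 as well. For both genes this value follows from groups that do not overlap and adds nothing to that. Without AVP replicate 1 the unadjusted p of Sgk1 by limma was 0.0501 and its log2 fold change 0.97.

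**Figure D1:**
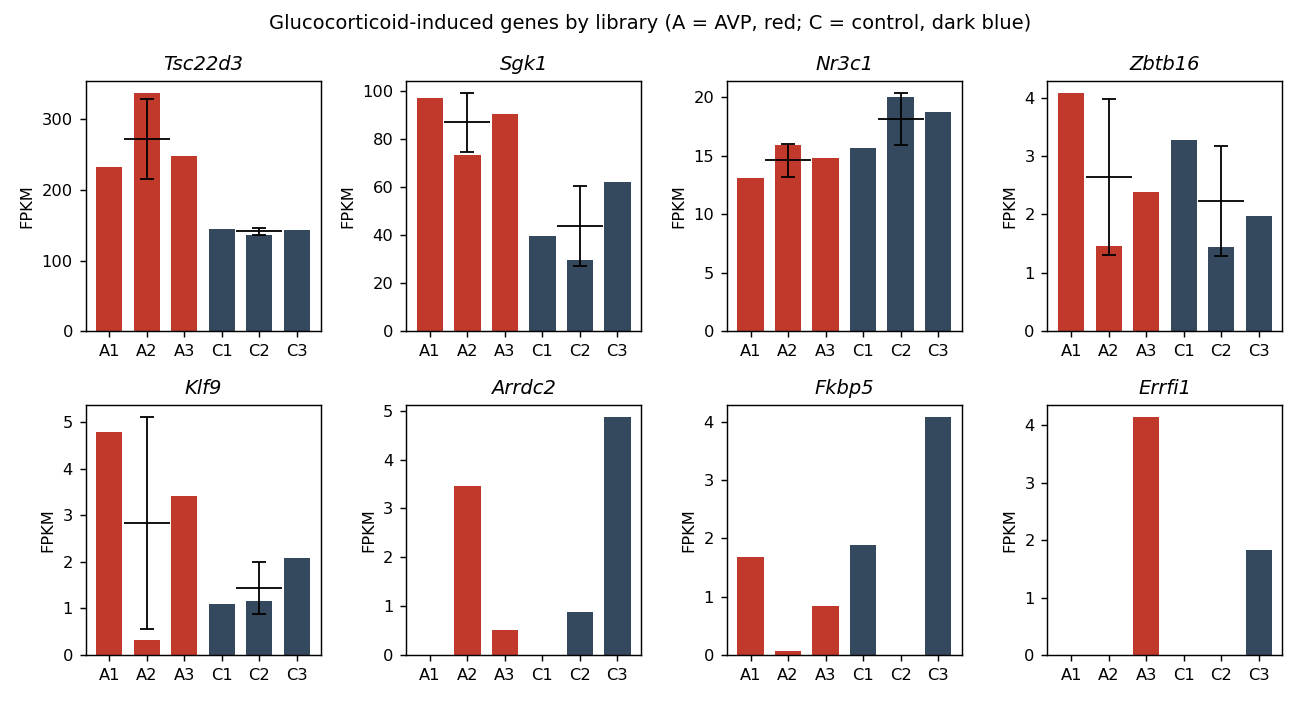
Level of each of the 8 genes in each library, in FPKM (AVP libraries A1 to A3 in red, control libraries C1 to C3 in dark blue), with the group mean and SD (n = 3) for the genes never listed at 0. The AVP and control libraries separate for Tsc22d3 (233 to 337 against 136 to 145 FPKM) and Sgk1 (73.5 to 97.2 against 29.9 to 62.3 FPKM).

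Nr3c1, the glucocorticoid receptor itself, was at 13.1, 15.9 and 14.8 FPKM in AVP replicates 1 to 3, against 15.6, 20.0 and 18.7 FPKM in control replicates 1 to 3. AVP replicate 2 lay just above control replicate 1, so the groups overlapped. The means were 14.6 ± 1.4 FPKM after AVP and 18.1 ± 2.23 FPKM in controls (SD, n = 3 each), and the fitted log2 fold change was -0.21 (95% interval -1.102 to 0.67). Its adjusted p by limma was 0.913. Within each library, Tsc22d3 stood at 17.7, 21.2 and 16.8 times the level of Nr3c1 in AVP replicates 1 to 3, against 9.29, 6.8 and 7.65 times in control replicates 1 to 3. This ratio needs no scaling between libraries, and the groups did not overlap in it. Sgk1 stood at 7.42, 4.63 and 6.12 times the level of Nr3c1 after AVP, against 2.53, 1.49 and 3.33 times in controls, also without overlap. The ratio of Tsc22d3 to Sgk1 overlapped between the groups, at 2.39, 4.59 and 2.74 after AVP and 3.68, 4.55 and 2.3 in controls. The ratios were formed with the levels of these genes known and are given as descriptions.

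The other 5 members were low. Fkbp5, on chromosome 17 from 28398753 to 28486149, encodes a co-chaperone that binds the receptor complex and limits its activity. It was at 1.67, 0.0639 and 0.835 FPKM in AVP replicates 1 to 3, against 1.89, 0 and 4.08 FPKM in control replicates 1 to 3. Its highest value was in control replicate 3, and its fitted log2 fold change was -0.44 (95% interval -2.103 to 1.23, adjusted p = 0.903 by limma). A value of exactly 0 may be a failed estimate, so of control replicate 2 it is said only that Fkbp5 is listed at 0 there. The same holds for other values of 0 below. Genes listed at 0 in a library but at 5 FPKM or more in the other 5 were unevenly spread. They numbered 43, 1 and 36 in AVP replicates 1 to 3, against 21, 21 and 7 in control replicates 1 to 3. Without control replicate 3 the log2 fold change of Fkbp5 turned to 0.082.

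Klf9, a Krüppel-like transcription factor on chromosome 19 from 23141226 to 23168129, was at 4.79, 0.326 and 3.41 FPKM in AVP replicates 1 to 3, against 1.09, 1.157 and 2.09 FPKM in control replicates 1 to 3. AVP replicates 1 and 3 lay above all controls, and AVP replicate 2 below all of them. The fitted log2 fold change of Klf9 was 0.495 (95% interval -1.159 to 2.15, adjusted p = 0.891 by limma). It was 1.17 without AVP replicate 2 and 0.028 without AVP replicate 1.

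Zbtb16, on chromosome 9 from 48651797 to 48836225, encodes a zinc finger transcription factor also known as PLZF, which in blood marks innate-like lymphocytes. It was at 4.08, 1.46 and 2.39 FPKM in AVP replicates 1 to 3, against 3.27, 1.45 and 1.97 FPKM in control replicates 1 to 3. The groups overlapped, with a fitted log2 fold change of 0.21 (95% interval -1.199 to 1.63, adjusted p = 0.939 by limma). Without AVP replicate 1 the log2 fold change of Zbtb16 turned to -0.11.

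Arrdc2, on chromosome 8 from 70835129 to 70839720, belongs to the arrestin domain family, whose proteins adapt membrane proteins for ubiquitination and sorting. It was at 0, 3.46 and 0.504 FPKM in AVP replicates 1 to 3, against 0, 0.881 and 4.88 FPKM in control replicates 1 to 3. Errfi1, on chromosome 4 from 150853796 to 150868889, encodes an inhibitor of the epidermal growth factor receptor family. It was at 0, 0 and 4.15 FPKM in AVP replicates 1 to 3, against 0, 0 and 1.83 FPKM in control replicates 1 to 3. Each reached 1 FPKM in 2 libraries, below the 3 needed to enter the test. Fitted with no filter on level, Arrdc2 had a log2 fold change of -0.24 (95% interval -2.59 to 2.12) and Errfi1 of 0.303 (95% interval -1.74 to 2.35).

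In order of mean level over the 6 libraries the members were Tsc22d3 (207 FPKM), Sgk1 (65.5 FPKM), Nr3c1 (16.4 FPKM), Zbtb16 (2.43 FPKM), Klf9 (2.14 FPKM), Arrdc2 (1.62 FPKM), Fkbp5 (1.42 FPKM) and Errfi1 (0.997 FPKM). Tsc22d3 was above Sgk1, and Sgk1 above Nr3c1, in each library. Nr3c1 was above all of the low 5 in each library, by 2.74 times the highest of them or more. The levels of the low 5 members overlapped one another across libraries. Of the genes tested, 4.07% had a higher mean level than Tsc22d3 and 10.2% a higher one than Sgk1, while 82.7% were above Zbtb16 and 94.2% above Fkbp5. The median SE of the log2 fold change was 0.69 among the 1815 genes with means of 1 to 3 FPKM and 0.32 among the 1108 genes with means of at least 50 FPKM. The 95% intervals of Fkbp5, Klf9 and Zbtb16 include the fold changes of Tsc22d3 and Sgk1, so a difference of that size is not excluded for them. The interval of Nr3c1 ends below both.

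**Figure D2:**
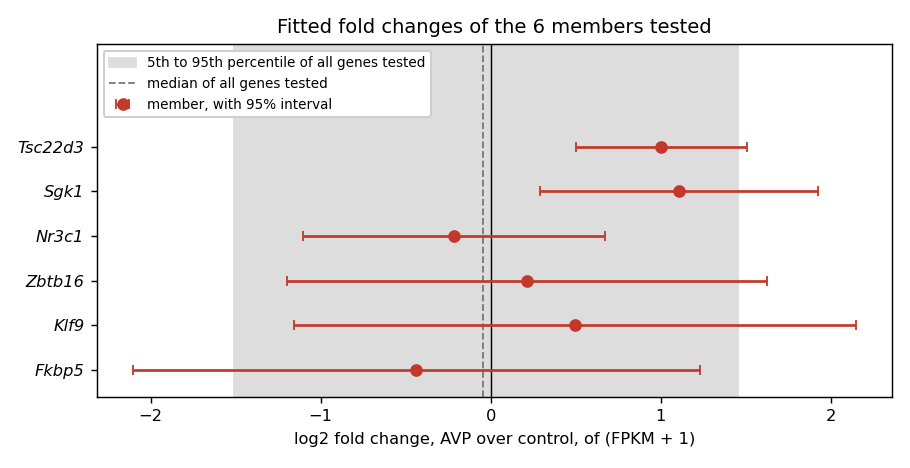
Fitted log2 fold change of (FPKM + 1), AVP over control, for the 6 genes tested, with 95% intervals by limma; the grey band spans the 5th to 95th percentile of all genes tested (-1.51 to 1.45) and the dashed line is their median (-0.045). The intervals of Tsc22d3 (0.503 to 1.504) and Sgk1 (0.29 to 1.93) lie above 0 and those of the other 4 genes include it.

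Across all 8523 genes tested by limma, 0 had an adjusted p under 0.05, which is 0% of those tested, and 722 had an unadjusted p under 0.05 (8.47%). Of the 6 members tested, 0 passed the adjusted threshold. Tsc22d3 and Sgk1, 2 members, were higher after AVP at the unadjusted threshold, where 4.69% of all genes were, and 0 members were lower, where 3.78% of all genes were. The same 2 members had every AVP library above every control, as did 7.4% of all genes, and 0 members had every AVP library below every control, as did 6.55% of all genes. The members' median log2 fold change was 0.35, beside -0.045 for all genes tested. The count at the unadjusted threshold was 1 without AVP replicate 1, where Sgk1 missed it. Over all genes the balance of 400 higher and 322 lower at that threshold turned to 346 higher and 376 lower on the deposited scale, to 347 higher and 413 lower without AVP replicate 2 and to 397 higher and 401 lower without AVP replicate 3. For Nr3c1 only AVP replicate 2 and control replicate 1 overlapped. Leaving out either of them put every AVP library below every control by construction, and the shares above do not apply to fewer libraries. The members were proposed with results of these libraries known, so their counts are descriptions.

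A list of 23 other glucocorticoid-induced genes, drawn from general knowledge of the receptor's targets, gave 15 genes tested. By limma, 7 of them were higher and 3 lower after AVP with an unadjusted p under 0.05, and 5 did not pass, where 4.69% of all genes tested were higher and 3.78% lower. The median log2 fold change of those tested was 0.897, and 0.56 with a filter of 10 FPKM. The adjusted threshold was passed by 0 of them. This list and the other lists below were chosen with earlier results of these data known, so their counts are descriptions. Cdkn1a, with a log2 fold change of 3.29, entered the test through its AVP libraries alone, which fixes its direction, and without it 6 of 14 were higher.

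The 4 genes with the smallest p are given first. Nfkbia, the gene of the inhibitor that holds NF-kB in the cytoplasm, was at 1018, 1074 and 1182 FPKM in AVP replicates 1 to 3, against 140.2, 153 and 382 FPKM in control replicates 1 to 3 (log2 fold change 2.51, SE 0.37, adjusted p = 0.0897 by limma). Il1r2, the decoy receptor of interleukin-1, was at 360.4, 195 and 358 FPKM after AVP, against 65.4, 98.6 and 99.4 FPKM in controls. These genes are also induced by inflammatory signals. Dusp1, a phosphatase that switches off MAP kinases, was at 1009.7, 949.7 and 898 FPKM after AVP, against 594, 451 and 589 FPKM in controls. Zfp36, which encodes an RNA-binding protein that speeds the decay of cytokine mRNAs, was at 773, 1096 and 771 FPKM after AVP, against 419, 331 and 632 FPKM in controls. All 4 had AVP libraries above all controls. Cxcr4, the receptor that retains neutrophils in bone marrow, was at 51.9, 59.7 and 63.1 FPKM after AVP, against 26.5, 35.9 and 27.3 FPKM in controls. Per1, a clock gene that glucocorticoids induce, was at 5.75, 7.91 and 11.3 FPKM after AVP, against 2.62, 1.53 and 1.59 FPKM in controls (log2 fold change 1.72, SE 0.58, adjusted p = 0.426 by limma).

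The 3 lower genes went against the list's name. Sesn1, a stress-induced regulator of mTOR signalling, was at 1.56, 1.54 and 3.51 FPKM after AVP, against 11.7, 15.3 and 10.5 FPKM in controls (log2 fold change -2.05, SE 0.57, adjusted p = 0.318 by limma). Txnip, the thioredoxin-interacting protein and an arrestin-domain relative of Arrdc2, was at 219, 136 and 136 FPKM after AVP, against 356, 259.6 and 284 FPKM in controls. Rgs2, a regulator of G protein signalling, was at 338, 501 and 429 FPKM after AVP, against 684, 533 and 746 FPKM in controls. In all 3 the AVP libraries lay below all controls. Log2 fold changes of the 5 tested genes that did not pass were 1.06 for Glul, 0.602 for Irs2, 0.58 for Anxa1, 0.205 for Bcl6 and -0.089 for Cebpd. Of the 8 genes that were not tested, Pdk4, Cd163, Mertk and Klf15 were listed at 0 throughout, and Ddit4, Mt1, Mt2 and Usp2 were too low.

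**Figure D3:**
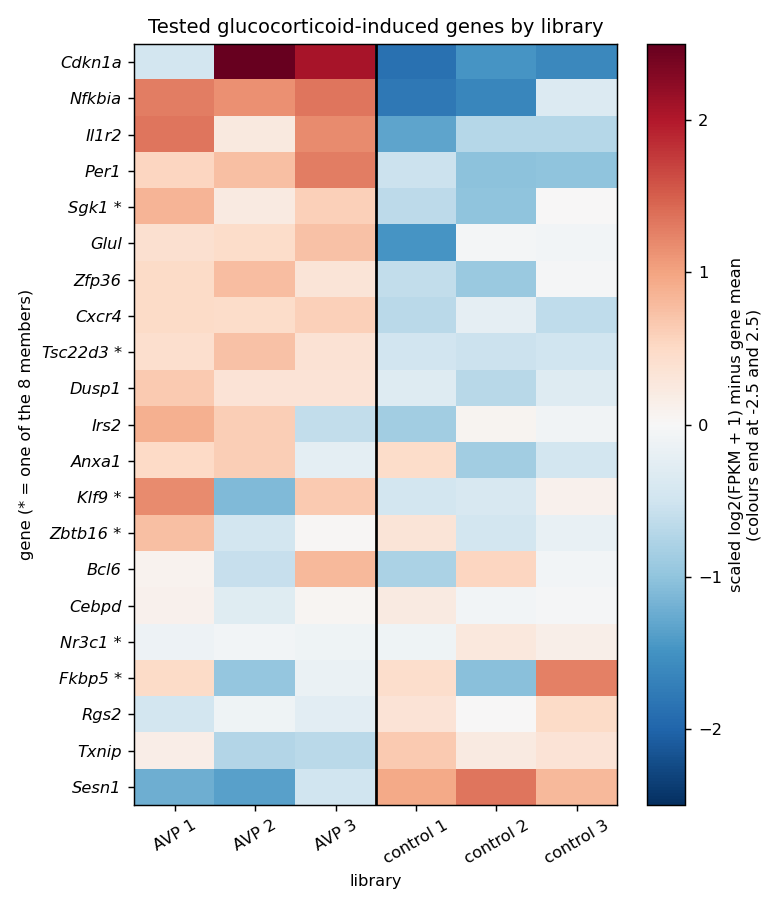
Scaled log2(FPKM + 1) of each tested glucocorticoid-induced gene in each library, minus the gene's mean over the 6 libraries (red above, blue below, colours ending at -2.5 and 2.5); asterisks mark the 6 tested members. Nfkbia, Il1r2 and Per1 are red in the AVP libraries on the left, Sesn1 is blue there, and Fkbp5, Klf9 and Zbtb16 vary within each group.

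Of 21 genes that hold, modify or feed the receptor (chaperones, coregulators and enzymes of steroid metabolism), 16 were tested, with 4 higher and 0 lower after AVP by unadjusted p under 0.05, where 4.69% of all genes tested were higher and 3.78% lower. The 4 were the chaperone genes Hsp90ab1, Hspa8 and Hsp90aa1 and the co-chaperone gene Fkbp4. Hsp90ab1 was at 49.9, 86.1 and 47.7 FPKM after AVP, against 27.6, 20.7 and 22.1 FPKM in controls (log2 fold change 1.38, SE 0.35, adjusted p = 0.291 by limma). The log2 fold change was 0.96 for Hspa8, 0.82 for Hsp90aa1 and 2.104 for Fkbp4, a co-chaperone related to the protein of Fkbp5. Other tested chaperone and co-chaperone genes did not pass, with log2 fold changes of 1.75 for Stip1, -0.053 for Ppid, -0.19 for Ptges3 and -0.56 for Bag1. The list's median was 0.21, and -0.13 with a filter of 10 FPKM. The count was 2 without AVP replicate 3 and 2 without control replicate 2. The 8 tested coregulator genes, Ncoa1, Ncoa2, Ncoa3, Crebbp, Ep300, Med1, Smarca4 and Ncor1, did not pass, with log2 fold changes between -0.65 for Smarca4 and 1.399 for Ncoa1. Nr3c2, the mineralocorticoid receptor gene, reached 0.6 FPKM in AVP replicate 3 and was listed at 0 elsewhere. Hsd11b2, whose enzyme inactivates corticosterone, was listed at 0 throughout.

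Inflammatory genes that glucocorticoids are known to repress made up another list. Of 12 such genes 7 were tested, with 5 higher and 0 lower after AVP by unadjusted p under 0.05 and a median log2 fold change of 2.48. Over all genes tested, 4.69% were higher and 3.78% lower at that threshold. That list's median was 0.97 with no filter and 1.63 without control replicate 1. Cxcl2, which encodes a neutrophil-attracting chemokine, was at 2098, 2019 and 2611 FPKM after AVP, against 9.67, 28.8 and 135 FPKM in controls (log2 fold change 6.07, SE 0.78, adjusted p = 0.0659 by limma). Tnf, Ccl3, Ccl4 and Il1b, genes of cytokines and chemokines, had log2 fold changes of 3.15 for Tnf, 2.48 for Ccl3, 2.71 for Ccl4 and 0.81 for Il1b. Of 20 immediate early genes, which handling and stress of cells also induce, 18 were tested, with 9 higher and 0 lower after AVP by unadjusted p under 0.05, beside the same shares of all genes. Egr3 entered the test through its AVP libraries alone, which fixes its direction, and without it 8 of 17 were higher. The smallest p were those of Ier3, Fosb, Gadd45b and Atf3, with log2 fold changes of 1.64 for Ier3, 3.23 for Fosb, 1.603 for Gadd45b and 2.33 for Atf3. The immediate early count was 5 without control replicate 1 and 5 without control replicate 2. Sgk1, Dusp1 and Zfp36 are immediate early genes in other cells, and the part that handling or inflammatory signals had in their levels was not tested.

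**Figure D4:**
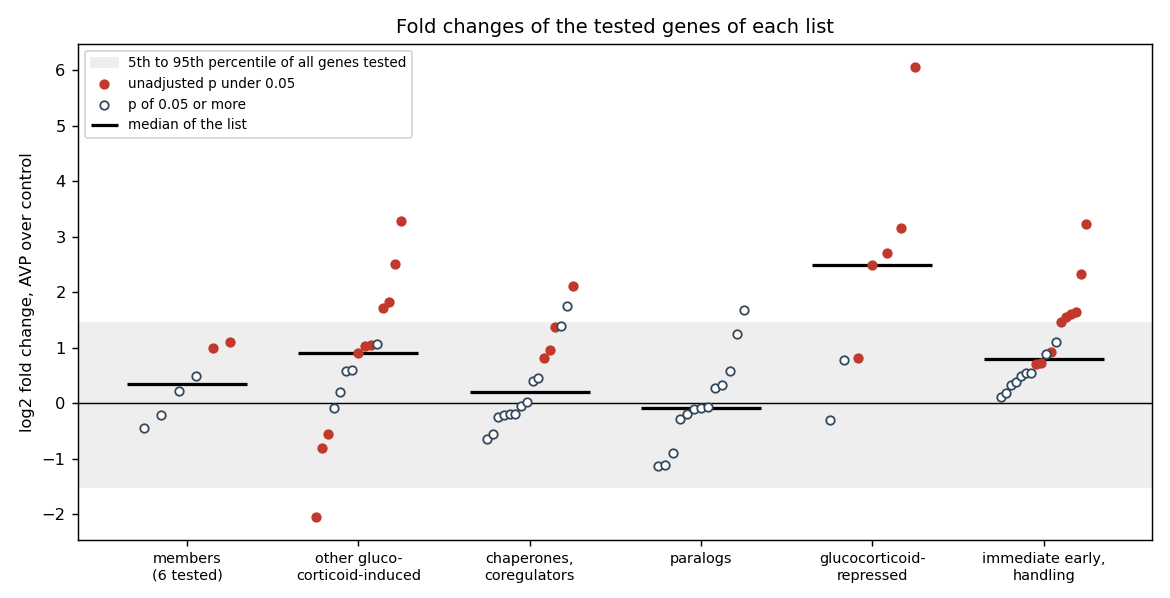
Log2 fold change, AVP over control, of each tested gene in the member list and in 5 other lists (red, unadjusted p under 0.05 by limma; open, 0.05 or more; black line, median of the list; grey band, 5th to 95th percentile of all genes tested). The medians are 0.35 for the members, 0.897 for other glucocorticoid-induced genes, 0.21 for chaperones and coregulators (-0.13 with a filter of 10 FPKM), -0.088 for paralogs, 2.48 for repressed inflammatory genes and 0.81 for immediate early genes.

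The genes whose pattern over the 6 libraries was most like that of Tsc22d3, the member with the highest mean, were found by the root mean square difference of centred log2 values among 4530 genes. They were Sidt2 (0.126), which encodes a lysosomal membrane protein, Retnlg (0.152), an abundant neutrophil transcript, Litaf (0.155), Arpc3 (0.188), a subunit of the actin-nucleating complex, and Entpd1 (0.191), an enzyme that degrades extracellular ATP. Sidt2 was at 18.1, 21.5 and 19.4 FPKM in AVP replicates 1 to 3, against 11.8, 9.17 and 9.77 FPKM in control replicates 1 to 3.

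Neutrophil markers matched the label, with 13 of 16 at 1 FPKM or more in all 6 libraries and S100a8 and S100a9 taking 18.4% to 23.9% of the total FPKM. Their summed level was 166986 to 195293 FPKM after AVP and 170881 to 190853 FPKM in controls. S100a8 and S100a9 make up most of that sum, and the other 14 markers summed to 13906, 14174 and 12748 FPKM in AVP replicates 1 to 3, against 7326, 7320.1 and 8063 FPKM in control replicates 1 to 3, without overlap. Retnlg, the largest of them, was at 10512, 11050 and 9729 FPKM after AVP, against 4925, 5057 and 5538 FPKM in controls. In 4 of the 16 markers (Retnlg, Lcn2, Ngp and Il1r2) every AVP library lay above every control, and in 1, Mmp9, below. Among all genes tested, on scaled values, 7.4% lay above and 6.55% below in this way. Il1r2 is also on the list of other glucocorticoid-induced genes. The part of these markers in the levels of Tsc22d3 and Sgk1 was not tested. Libraries held 755140 to 829725 FPKM in all, from an estimated 14199000 to 16845000 fragments. Transcripts of other cells were present, and AVP replicates 1 and 3 stood apart in them. B cell markers, 9 of 10 of them at 1 FPKM or more in every library, summed to 2118, 6833 and 5104 FPKM in AVP replicates 1 to 3, against 7488, 8834 and 6565 FPKM in control replicates 1 to 3. In 3 of the 10 (Cd79b, Igkc and Pax5) every AVP library lay below every control, and in 1, Ighd, above, beside the same shares of all genes. Monocyte markers (7 of 11) summed to 1003 to 6196 FPKM after AVP, lowest in replicate 3, and 2524 to 5199 FPKM in controls. In 1 of the 11, Ms4a4c, every AVP library lay below every control. T cell markers (0 of 11, with Cd3e, Cd4, Cd8a and Cd8b1 at 0 throughout) summed to 126 FPKM in AVP replicate 3 and at most 11.6 FPKM in the other AVP libraries, against 0.701 to 14.3 FPKM in controls. NK cell markers (0 of 9, with Eomes at 0 throughout) summed to 3.33 to 59.8 FPKM after AVP, highest in replicate 3, and 3.72 to 4.87 FPKM in controls. Basophil markers (0 of 8) summed to 338 FPKM in AVP replicate 1 and at most 0.0466 FPKM in the other AVP libraries, against at most 31.1 FPKM in controls. Red cell markers (7 of 9) summed to 119461 to 242659 FPKM after AVP, highest in replicate 1, and 102744 to 154943 FPKM in controls. The sums of eosinophil markers (1 of 8, with Epx, Prg2, Ear1 and Ear6 at 0 throughout), platelet markers (1 of 7) and dendritic cell markers (1 of 7, with Siglech, Xcr1 and Cd209a at 0 throughout) overlapped between the groups. Among the platelet markers, all of them low here, every AVP library lay above every control in Gp1bb, listed at 0 in controls. In Itgb3 every AVP library lay below every control.

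Tsc22d3 is also abundant in lymphocytes. Its fitted log2 fold change was 1.05 without AVP replicate 1, where B cell markers were lowest. It was 0.89 without AVP replicate 2, where B cell markers were the highest of the AVP libraries and monocyte markers the highest of all. It was 1.07 without AVP replicate 3, where T and NK cell markers were highest. For Sgk1 these values were 0.97, 1.28 and 1.09. Leaving out 1 library cannot address markers that differed in all AVP libraries. The part of other cells in these levels was not tested. In such bulk libraries fewer cells of a type and less RNA per cell cannot be told apart.

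**Figure D5:**
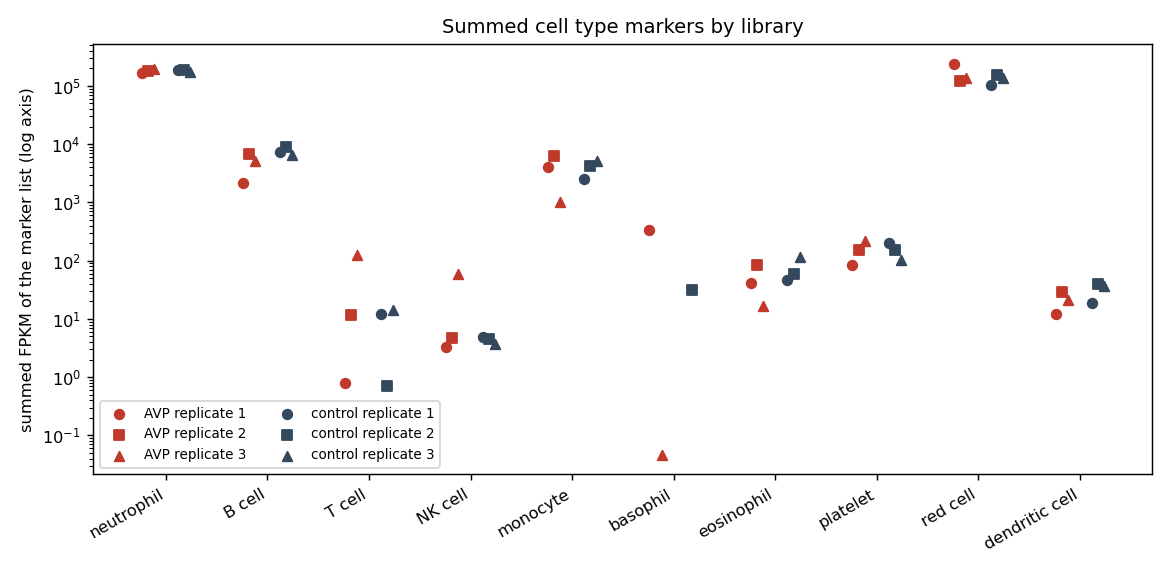
Summed FPKM of 10 cell type marker lists in each library on a log axis (red, AVP; dark blue, control; the marker shape gives the replicate; sums of 0 are not drawn). Neutrophil sums lie within 166986 to 195293 FPKM, while T and NK cell sums are highest in AVP replicate 3 (126 and 59.8 FPKM) and the basophil sum in AVP replicate 1 (338 FPKM).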

How the data were processed

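Sorted neutrophil RNA was extracted with TRIZOL, and TruSeq libraries were sequenced as paired reads, per the labels' protocols. The submitters' processing notes name the mm10 build and, in no order, DESeq2 2.11.40.6, HISAT2 2.1, bcl2fastq 2.19, cutadapt 1.16.5 and featureCounts 1.6.4; the role of each is not given in the sources used here. As no header names a unit, the values deposited by the authors were taken as FPKM from their range. Depth was estimated in pseudogenes shorter than 700 bases, each taken to hold 1 fragment. The most common result within a preset range was kept, so the range bounds the estimate. It rested on 13 to 27 pseudogenes per library.

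The test took genes that reached 1 FPKM in 3 or more libraries (8523). A trimmed mean of log ratios (30% of ratios, 5% of levels) scaled the libraries. Groups were compared on log2(FPKM + 1), which understates the change of low genes, with limma 3.58.1 in R 4.3.3. The fit used an intensity trend and Benjamini-Hochberg adjustment over all genes, with a threshold of 0.05. It was also run on simulated data. Changes were placed there only in genes above the level of Nr3c1, so Nr3c1 and the low members were not covered. Printed FPKM are unscaled. Python 3.11.15 with pandas 2.3.3, numpy 2.4.6 and matplotlib 3.10.9 made tables and plots. The members and lists were chosen with earlier results of these data known. Named genes are all members, the 4 tested genes with the smallest p in each other list, and the 5 genes most like Tsc22d3 (mean of at least 5 FPKM); further genes, the ratios and the motifs were chosen after values were seen. Gene positions and promoters are RefSeq's (GRCm38.p6, the assembly of mm10). The 17 alternatives changed scaling, filter, pseudocount or moderation, removed haemoglobin, immunoglobulin and mitochondrial genes, added a replicate block, or left out each library.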

Additional observations from a re-analysis of the deposited data

Results flagged for a closer look

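The values here belong to glucocorticoid-related genes that were too low to be tested but reached 1 FPKM in an AVP library, above all 3 controls. Errfi1 was at 4.15 FPKM in AVP replicate 3, against a highest control value of 1.83 FPKM. Hsd11b1, whose enzyme regenerates active corticosterone from its inert form, reached 10.9 FPKM in AVP replicate 1 and was listed at 0 in each control. Mt1, a metallothionein, reached 7.37 FPKM in AVP replicate 2, against at most 1.63 FPKM in controls. Ddit4, an inhibitor of mTOR signalling, reached 1.6 FPKM in AVP replicate 3, against at most 0.494 FPKM in controls. Values that were high in a control were not looked for in this way. AVP replicate 1 also held the basophil transcripts and AVP replicate 3 the T and NK cell transcripts, and their part in these values was not tested.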

How the results depend on the processing

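Under 17 alternatives the number of members past an adjusted p of 0.05 stayed at 0. Tsc22d3, Sgk1, Nr3c1 and Klf9 kept their direction under every alternative that tested them; the filter of 10 FPKM leaves out Klf9, Fkbp5 and Zbtb16. When single libraries were left out, the log2 fold change of Fkbp5 ranged from -1.07 to 0.082, the upper end without control replicate 3, and that of Zbtb16 from -0.11, without AVP replicate 1, to 0.503; the cause was not tested. Over all alternatives the adjusted p by limma ranged from 0.156 to 0.609 for Tsc22d3 and from 0.353 to 0.733 for Sgk1. Of all genes, 3 were called with a pseudocount of 5, 11 with the filter of 10 FPKM, 1 with no intensity trend and 0 to 4 with a library left out (4 without control replicate 3), against 0 as reported; all of them were higher after AVP. Genes with an unadjusted p under 0.05 numbered 722 as reported, 380 with the filter of 10 FPKM, where fewer genes were tested, and 612 to 798 with a library left out. Leaving out each library gave 2 to 3 members above all controls and 0 to 1 members below all controls. The added member above was Klf9, without AVP replicate 2, its only AVP library below all controls. The member below was Nr3c1, without AVP replicate 2 or control replicate 1, the libraries in which its groups overlapped. Both changes follow from the library removed, and shares of all genes were not computed for fewer libraries. With quantile normalization 1 member also lay below all controls. At the unadjusted threshold, leaving out each library gave 1 to 2 members, 8 to 10 other glucocorticoid-induced genes and 2 to 4 chaperone and coregulator genes. It also gave 0 to 1 paralogs, 4 to 6 repressed inflammatory genes and 5 to 10 immediate early genes. On the deposited scale 1 paralog passed, and the median of all genes was -0.11. Of 85 list medians under alternatives, 7 moved by more than the spread between replicates. Low levels limit Fkbp5, Klf9, Zbtb16, Arrdc2 and Errfi1.

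Both groups carry the same replicate numbers. Deviations of libraries of the same number from their group means had correlations of 0.0205, -0.0129 and -0.0423. Libraries of unlike number had correlations from -0.0356 to 0.0509. With 3 libraries per group these values cannot tell whether libraries of the same number were paired. With the replicate block, 672 genes had an unadjusted p under 0.05 and 0 an adjusted one, and Tsc22d3 had an adjusted p of 0.522 by limma.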

Other observations

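The closest relatives of the members were examined as a further list. Of 15 paralogs 13 were tested by limma, with 0 higher and 0 lower after AVP by unadjusted p under 0.05, where 4.69% and 3.78% of all genes were. Klf14 and Sgk2 were too low to be tested. Tsc22d1, a relative of Tsc22d3, was at 43.1, 18.7 and 40.5 FPKM in AVP replicates 1 to 3, against 4.24, 46.1 and 4.19 FPKM in control replicates 1 to 3. Control replicate 2 was its highest library, so the groups overlapped. Tsc22d4 had a log2 fold change of -0.088 (SE 0.41). Sgk3, a kinase related to Sgk1, was at 8.97, 15.2 and 4.02 FPKM after AVP, against 7.98, 5.92 and 17.7 FPKM in controls. Arrdc3 and Arrdc4, relatives of Arrdc2, had log2 fold changes of 0.34 for Arrdc3 and 1.24 for Arrdc4. Fkbp3, a relative of Fkbp5, had the smallest p of the list (log2 fold change -0.896, SE 0.41, adjusted p = 0.612 by limma), and Fkbp1a had a log2 fold change of -1.11.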
